A study of Mus musculus with 2 samples.

Results

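The cytosolic ribosomal protein genes were described as 1 module across the cells of 2 single-cell RNA libraries. Members were the gene rows whose symbol is Rpl or Rps followed by a digit, or Rplp0, Rplp1, Rplp2 or Rpsa, leaving out pseudogene rows and the S6 kinases, whose symbols also begin with Rps6. This gave 86 of the 32285 genes in the matrices, 52 with an Rpl or Rplp symbol and 34 with an Rps symbol. All 86 are annotated as protein coding and lie on 19 chromosomes, and each had at least 1 UMI (unique molecular identifier, a tag that marks 1 captured RNA molecule). Rps19bp1 met the rule through its symbol but encodes a protein that binds Rps19 and is not a ribosomal protein. Fau and Rack1 encode ribosomal proteins under other symbols and were counted apart.

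The cells came from the central nervous system of CD45.1 recipient mice conditioned with busulfan, an alkylating drug that clears marrow, at 4 doses of 25 mg/kg. Lineage-negative (Lin-) cells, sorted as GFP+ and GFP-, had been infused into them at 1 donor to 1 recipient. The library labelled Het has the genotype Cx3cr1-/+ (1 disrupted copy of the fractalkine receptor gene) and the library labelled WT has Cx3cr1+/+, although the protocol text of both names Cx3cr1-/+ donors. The labels call both samples microglia-like cells, and give no source for the GFP, no interval from transplant to harvest, no number of pooled animals and no statement that host cells were removed. With 1 library per genotype no difference was tested, intervals cover counting error only, and genotype, donor, animal and library cannot be told apart.

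The Het library held 1837 barcodes and the WT library 2359. After dropping barcodes with fewer than 500 genes or with 10% or more of UMIs from mitochondrial genes, 1489 and 1949 were left, with medians of 6880 and 6637 UMIs. The libraries shared 339 barcodes, of which 255 were kept in Het and 198 in WT. Cells were clustered without the ribosomal protein genes, and 17 of 19 clusters were named from marker genes. The class named microglia-like from its markers was a minority, with 204 of 1489 Het cells and 312 of 1949 WT cells. Beside it were 306 and 633 monocyte-like, 318 and 471 neutrophil-like and 193 and 224 dendritic cell-like cells. The labels do not say whether their microglia-like cells are this class alone. Cx3cr1 itself stood at 2226 CPM (a gene's UMIs scaled to a fixed total for each set of cells) in Het and 2168 in WT microglia-like cells, a ratio of 1.03 (0.982 to 1.07), against 0.728 (0.671 to 0.790) in monocyte-like cells. Whether the counted 3′ end lies in the altered part of the gene is not given in the sources used here. Xist, a transcript of female cells, was found without Y-linked UMIs in 254 of 306 monocyte-like cells in Het and 12 of 633 in WT, and Y-linked UMIs without Xist in 6 and 364, so in this class the sex of the cells moved with the genotype label. Among microglia-like cells Xist alone was found in 96 cells in Het and 89 in WT, and Y-linked UMIs alone in 0 and 17, with both in 0 and 30. Ratios within Xist-marked cells are in the closing section.

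Each cytosolic ribosome joins a small 40S subunit, which reads the messenger RNA, with a large 60S subunit, which forms peptide bonds. Its proteins are made in near equal amounts, and their messages are among the most abundant in growing cells. Many of these messages begin with a run of pyrimidines right at the cap, the TOP motif (terminal oligopyrimidine), through which the mTORC1 pathway controls their translation. A few members have a second gene copy, or paralog, whose protein can take the place of the usual one in certain tissues, such as Rpl3l in striated muscle.

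The start-site sequences below are shown because the paralog pairs carry the clearest differences between cell classes; Rps24 is an abundant member with a run at its start. Each line runs from 30 bases before to 15 bases after the annotated start, in RefSeq's promoter table for GRCm38.p6. Capitals mark a C followed by at least 4 of C or T on the sense strand. Only bases inside the window from 5 bases before to 10 bases after the start were counted and marked.
Rps27: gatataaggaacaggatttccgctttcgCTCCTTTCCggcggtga
Rps27rt: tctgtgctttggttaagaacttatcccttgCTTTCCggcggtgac
Rps27l: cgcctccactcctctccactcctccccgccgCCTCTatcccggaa
Rpl22: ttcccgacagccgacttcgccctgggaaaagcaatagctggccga
Rpl22l1: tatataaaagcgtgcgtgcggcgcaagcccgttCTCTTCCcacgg
Rpl36a: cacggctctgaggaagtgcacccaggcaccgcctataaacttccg
Rpl36al: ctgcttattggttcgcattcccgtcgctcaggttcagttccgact
Rpl3l: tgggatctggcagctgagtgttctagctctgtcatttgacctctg
Rps24: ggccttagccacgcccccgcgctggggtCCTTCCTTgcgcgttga
These stretches lie at chr3:90213634-90213678 (minus strand) for Rps27, chr9:114982725-114982769 (minus) for Rps27rt, chr9:66946056-66946100 (plus) for Rps27l, chr4:152325696-152325740 (plus) for Rpl22, chr3:28805478-28805522 (plus) for Rpl22l1, chrX:134585624-134585668 (plus) for Rpl36a, chr12:69184053-69184097 (minus) for Rpl36al, chr17:24727796-24727840 (plus) for Rpl3l and chr14:24490648-24490692 (plus) for Rps24. The windows of Rpl22, Rpl36a, Rpl36al and Rpl3l held no such run. The pyrimidine stretches near the end of the Rpl36a and Rpl3l lines lie mostly past the window and were not counted. The Rpl22l1 run also reaches past the window, and its capitals stop at the window's end. Of the 66 members in the table, 30 (45.5%) had the pyrimidine run, against 21.2% of all 27025 symbols. The letters CCGGAAG, which ETS factors can bind, were in the 300-base window (250 before to 50 after the start, either strand) of 26 of the 66 members (39.4%) and of 9.93% of all symbols. AAGATGG, found in sites of the factor YY1, was in 10 members (15.2%) and 7.28% of all symbols.

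Ribosomal protein genes gave 14.7% of the UMIs of kept cells in the Het library (95% Clopper-Pearson interval 14.73% to 14.77%) and 15.8% in WT (15.80% to 15.83%). Over all barcodes, kept or not, they gave 14.4% in Het and 15.5% in WT. The share differed widely between classes. It was 25.1% in Het and 22.7% in WT in NK cell-like cells, and 22.4% and 23.2% in dendritic cell-like cells. Monocyte-like cells had 18.3% in both. Microglia-like cells had 14.4% and 15.8%, neutrophil-like cells 10.2% and 11.98%, and ependymal or choroid plexus-like cells, which are epithelial cells of the ventricles, 6.99% and 6.75%. NK, dendritic and monocyte-like cells thus stood above microglia-like cells, and neutrophil-like cells below them, in both libraries. Choroid plexus-like cells were also below, but most of their barcodes were found in both libraries.

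**Figure D1:**
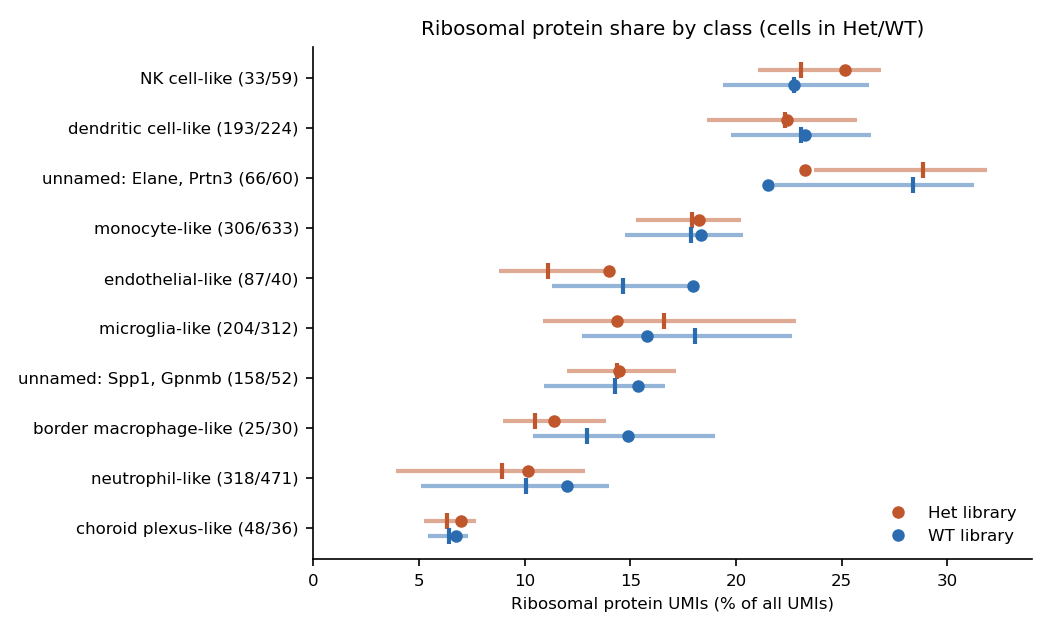
Share of UMIs from the 86 ribosomal protein genes (x axis, percent) by class (y axis, with cells in Het/WT). Circles are summed shares, ticks and bars are the median and the middle quartiles over cells, and the order from choroid plexus-like (6.99% and 6.75%) to NK cell-like (25.1% and 22.7%) is close to the same in both libraries.

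The remaining classes were smaller or unnamed. Cells led by Spp1, Gpnmb and Apoe, genes of lipid-handling macrophages, stayed unnamed and had 14.5% in Het and 15.4% in WT. Border-associated macrophage-like cells had 11.4% and 14.9% (25 and 30 cells), and endothelial-like cells 14.0% and 18.0% (87 and 40 cells). Of the endothelial-like cells, 25 in Het and 19 in WT had barcodes found in both libraries, and without them the shares were 11.3% and 17.1%. A cluster led by Elane, Prtn3 and Mpo, granule genes of early granulocyte precursors, had 23.3% and 21.5%. It also held few UMIs per cell (medians 1745 and 1626), and 96 of its 126 cells had barcodes found in both libraries. In the choroid plexus-like class this was so for 72 of 84 cells, so neither class gives 2 separate readings. The smallest classes spread more: B cell-like cells had 22.2% (16 cells) and 24.8% (11 cells), mast cell or basophil-like cells 14.6% and 20.8% (14 cells each), and oligodendrocyte lineage-like cells 4.86% (11 cells, Het alone). Astrocyte-like cells had 9.55% in Het (10 cells) and 2.54% in WT (7 cells) when summed, a gap wider than that of any other class, but medians over cells of 2.13% and 2.38%.

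The microglia-like class joined clusters with unlike shares. The cluster led by Adamts1, P2ry12 and Nav3, which holds the resting microglia gene P2ry12, had 11.6% in Het (94 cells) and 12.9% in WT (124 cells). The cluster led by Klk8, Sparc and Ltc4s had 22.0% (110 cells) and 22.2% (188 cells). The second was shallower, with median UMIs of 2900 and 2627 against 8837 and 8450, and its mitochondrial share was 4.42% and 3.82% against 2.32% and 2.36%. Between these clusters 70 of 82 members were beyond 1.5-fold higher in the Klk8 cluster in both libraries and 0 lower, where 9.42% of all tested genes were higher and 35.5% lower. A member counted as tested with at least 50 UMIs over the compared cells and a mean of at least 20 CPM. Within the P2ry12 cluster the share went with depth the other way: it was 7.04% in the shallowest quartile of Het cells and 12.7% in the deepest, and 8.85% and 13.7% in WT. The part of depth and mitochondrial share in the difference between the clusters was not tested.

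Neutrophil-like cells split in the same way. The cluster led by Camp, Fcnb and Ngp, genes of immature neutrophils that still fill their granules, had 11.4% in Het and 13.2% in WT (209 and 309 cells). The cluster led by Olfm4, Ltf and Ngp had 6.04% and 5.44% (54 and 65 cells), and the cluster led by Cstdc4, Stfa1 and Stfa2l1, with the late neutrophil gene Retnlg, 3.33% and 5.33% (55 and 97 cells). Between the Stfa1 and Camp clusters 79 of 82 members were beyond 1.5-fold lower in both libraries, and between the Olfm4 and Camp clusters 78 of 82, where 48.1% and 47.3% of all tested genes were lower; 0 members were higher, against 9% and 4.11% of genes. The median member fell by 1.98 (Het) and 1.41 (WT) on the log2 scale in the first comparison, against -0.80 and -0.71 for all tested genes.

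Microglial transcripts were present in these neutrophil-like clusters. In the Camp cluster all 15 listed microglia markers were detected in both libraries, with summed levels of 11552 CPM in Het and 10452 in WT, against 34107 and 35198 in the P2ry12 cluster, and its cells were deep (medians of 20453 and 19020 UMIs). In the Olfm4 cluster the markers summed to 1440 CPM in Het and 1638 in WT, and in the Stfa1 cluster to 2231 and 6299 CPM. Among Stfa1 cells with under 0.25% of UMIs in microglia markers, a limit set after seeing the values, the ribosomal protein share was 2.78% in Het (45 of 55 cells) and 2.88% in WT (54 of 97 cells), a ratio of 0.968 (0.937 to 1.00), where it was 0.624 (0.611 to 0.638) over all cells of the cluster. The remaining cells had 5.21% (10 cells) and 7.58% (43 cells). Under the same limit the Camp cluster had 9.87% (38 cells) and 12.3% (85 cells), so that the Stfa1 cluster was below it in both libraries. The Het to WT ratio of the Camp cluster was 0.806 (0.800 to 0.812) under the limit and 0.864 over all its cells, so there the gap widened where that of the Stfa1 cluster narrowed. The part of microglial transcripts in these shares was not tested.

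**Figure D2:**
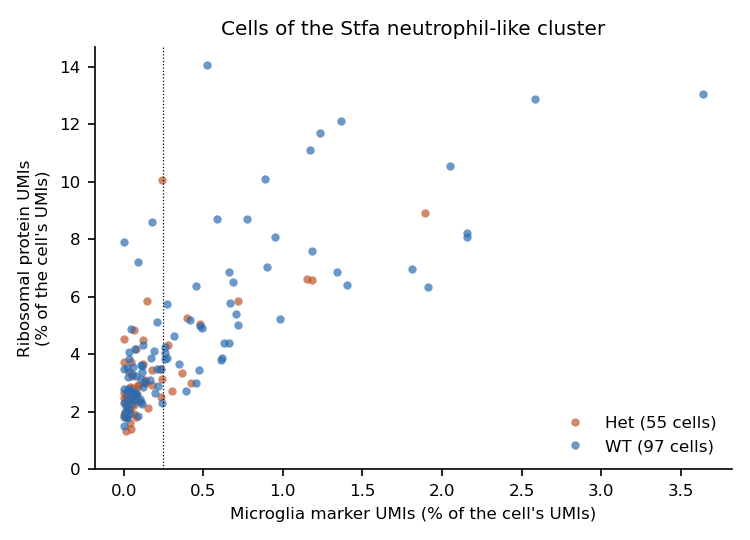
Each point is 1 cell of the neutrophil-like cluster led by Cstdc4 and Stfa1 (55 Het and 97 WT cells), with its share of UMIs in 15 microglia markers (x axis, percent) and in ribosomal protein genes (y axis, percent). Left of the dotted line at 0.25% the summed shares were 2.78% and 2.88%, and the cells to the right had 5.21% and 7.58%.

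Against microglia-like cells as a whole, the summed share of neutrophil-like cells was 0.706 (0.703 to 0.710) in Het and 0.758 (0.755 to 0.761) in WT. At the level of single members 0 of 83 were beyond 1.5-fold higher and 13 lower in both libraries, which is 15.7% where 9.69% of all tested genes were higher and 28.7% lower. The ratio depends on which microglia-like cells are used: against the P2ry12 cluster alone it was 0.874 and 0.925, and with each cell given the same weight 0.546 and 0.557. In dendritic cell-like cells 38 of 83 members were beyond 1.5-fold higher than in microglia-like cells in both libraries and 0 lower, where 13.2% of all tested genes were higher and 21.8% lower. Of these dendritic cell-like cells, 57 of 193 in Het and 32 of 224 in WT had barcodes found in both libraries. Without them the class had shares of 22.3% and 23.5%, and the count of members was not repeated. In monocyte-like cells 3 of 83 were higher and 0 lower, against 17.9% and 18.5% of all genes, although the median member was up by 0.35 and 0.22 on the log2 scale.

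Single members were compared by their share of the ribosomal protein UMIs, which takes the total out. Since 3′ libraries count molecules, these levels do not scale with transcript length. Among the most abundant members over all cells were Rps29 (4735 CPM in Het, 4940 in WT), Rpl41 (3793 and 4025), Rps24 (3745 and 3916), Rps27a (3485 and 3901), Rpl37 (3228 and 3511), Rps28 (3000 and 3174) and Rpl23 (2909 and 3179). Rps27a is made as a fusion with ubiquitin, and Rpl41 is the shortest protein of the ribosome. The 10 most abundant members made up 23.1% of the module in Het and 23.2% in WT, so no few genes set the total. In sum the 60S members had more UMIs than the 40S members in each of the 10 classes plotted, with a ratio of 1.17 and 1.18 in neutrophil-like, 1.23 and 1.23 in microglia-like and 1.34 and 1.40 in choroid plexus-like cells. There are 52 of the first and 34 of the second, so these sums do not mean more UMIs per 60S member.

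The make-up was much alike between the largest named classes. The neutrophil-like class held microglial transcripts, as given above, and their part in this likeness was not tested. Over the microglia-, monocyte-, neutrophil- and dendritic cell-like classes, the ratio of a member's highest to lowest share had a median of 1.18 in Het and 1.14 in WT over the 80 members with at least 100 UMIs in each. Rplp1, a protein of the acidic stalk that binds translation factors, varied most (1.90 in Het and 1.79 in WT): it made up 2.37% and 2.17% of ribosomal protein UMIs in microglia-like cells, 1.25% and 1.21% in monocyte-like, 1.46% and 1.46% in neutrophil-like and 1.56% and 1.42% in dendritic cell-like cells. Rpsa, the 40S protein also known as the laminin receptor, went the other way, with 1.19% and 1.17% in microglia-like and 1.77% and 1.80% in dendritic cell-like cells.

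The other members with the widest spread were Rps29, Rpl12, Rps27l, Rps27, Rpl14, Rps9, Rps26 and Rpl36al, with ratios from 1.34 to 1.56 in either library. Rps29 was highest in microglia-like cells (4.198% and 3.87%) and lowest in dendritic cell-like cells (2.75% and 2.63%). Rpl14 was highest in dendritic cell-like cells (0.65% and 0.60%) and lowest in monocyte-like cells (0.41% and 0.43%). Rps9 was highest in neutrophil-like cells (2.03% and 1.86%) and lowest in dendritic cell-like cells (1.35% and 1.34%). For 9 of the 10 members the highest and the lowest class were the same in both libraries; Rps27l was highest in dendritic cell-like cells in Het and in microglia-like cells in WT.

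**Figure D3:**
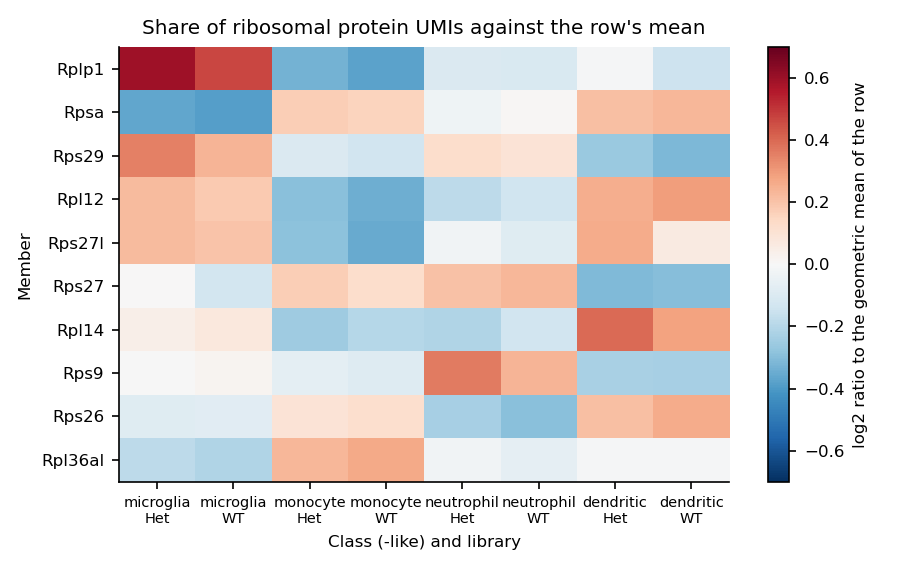
Share of ribosomal protein UMIs of the 10 members with the widest spread (rows), by class and library (columns), as the log2 ratio to the row's geometric mean (colour). Rplp1 and Rps29 stand out as high in microglia-like cells, Rpsa as low, and Het and WT columns of 1 class look alike.

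The make-up differed more between the neutrophil-like clusters. For shares of ribosomal protein UMIs a member needed at least 50 UMIs over the compared cells in each library, with no CPM minimum. Of 84 members, 3 were beyond 1.5-fold higher and 5 lower as a share of ribosomal protein UMIs in the Stfa1 cluster than in the Camp cluster in both libraries. Rps9 rose from 1.93% to 4.92% in Het and from 1.78% to 3.52% in WT, and Rpl37 from 2.23% to 5.48% and from 2.21% to 4.31%. Rps27a was the third, at 5.46% and 3.94% against 2.58% and 2.54%. Rpsa was lower, at 0.52% and 0.81% against 1.501% and 1.56%, as were Rpl35, Rps19, Rpl36al and Rps18. In CPM, Rps9 stood at 0.746 of its Camp-cluster level in Het and 0.800 in WT, and Rpsa at 0.101 and 0.209. In the Olfm4 cluster Rpl12 and Rpl3 were lower by this rule, and Rpl3l was higher as a share, although its level was close to that of the Camp cluster (15.2 against 13.4 CPM in Het, 22.4 against 22.9 in WT) and rested on 15 and 20 UMIs.

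Rpl3l, the paralog of the 60S protein Rpl3 best known from heart and skeletal muscle, stood highest in monocyte-like and neutrophil-like cells among the classes plotted. It lies on chromosome 17 (24727820 to 24736143, plus strand) and had 207 UMIs in Het and 471 in WT. In the monocyte-like cluster led by Cd300e, Fabp4 and Ace, genes of patrolling monocytes, it reached 56.8 CPM (74 UMIs) in Het and 67.3 CPM (179 UMIs) in WT. In the cluster led by Vcan, Fn1 and F13a1, genes of classical monocytes, it had 8.75 CPM (11 UMIs) and 11.8 CPM (24 UMIs).

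That is a ratio of 6.49 (3.42 to 13.6) in Het and 5.70 (3.71 to 9.13) in WT, while the same contrast over all members had medians of -0.24 and -0.22 on the log2 scale, with 1 member beyond 1.5-fold higher (Rpl3l) and 5 lower of 84, where 14.5% and 10.4% of all genes were higher and lower. Rpl3l met the UMI and CPM minimums through the Cd300e cluster, since its Vcan-cluster counts and levels alone were under both. At those Vcan-cluster levels it could be called higher or go untested, but not be called lower. Rpl3 itself was lower in the Cd300e cluster, going from 1202 to 842 CPM and from 1177 to 859 CPM. Rpl3l was then 6.32% (4.99% to 7.87%) of the pair in Het and 7.27% (6.28% to 8.37%) in WT, against 0.72% and 0.99% in the Vcan cluster.

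The share of cells with an Rpl3l UMI gave the same order. It was 27.7% of Het and 29.3% of WT cells in the Cd300e cluster, 9.90% and 9.44% in the Vcan cluster and 1.96% and 3.53% in microglia-like cells, at median depths of 5702 and 4904, 11815 and 10007, and 4014 and 3725 UMIs. Dendritic cell-like cells, taken as the background class, had 2.07% and 2.23% at median depths of 9767 and 9491 UMIs, so the microglia-like values are near this background. Thinned to 2000 UMIs a cell, the Cd300e cluster kept 12.3% of 163 Het cells and 14.7% of 373 WT cells with a UMI, and microglia-like cells 0 of 162 and 1 of 231. Neutrophil-like cells, thinned in the same way, kept 2.73% of 293 Het cells and 4.35% of 437 WT cells with a UMI. A small monocyte-like cluster led by Tgm3, Apoe and Rgs1 (17 and 19 cells) had 48.6 and 67.8 CPM, and Rpl3l was among its 10 leading genes, so that level is a description only; thinned, 1 of 17 and 0 of 18 of its cells had a UMI.

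In neutrophil-like cells Rpl3l had 14.1 CPM in Het and 22.3 in WT, above microglia-like cells (4.47 and 7.55 CPM, 7 and 16 UMIs) by 3.15-fold (1.47 to 8.05) and 2.95-fold (1.77 to 5.26). It was the 1 of 84 members beyond 1.5-fold in share of ribosomal protein UMIs between these classes in both libraries; it met the minimum of 50 UMIs through the neutrophil-like cells, and its mean level was under 20 CPM. Its level was lower in the Het library in neutrophil-like cells (log2 ratio -0.66, -1.04 to -0.30) and in monocyte-like cells (-0.36, -0.71 to -0.01). At these counts the second interval comes close to no difference.

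**Figure D4:**
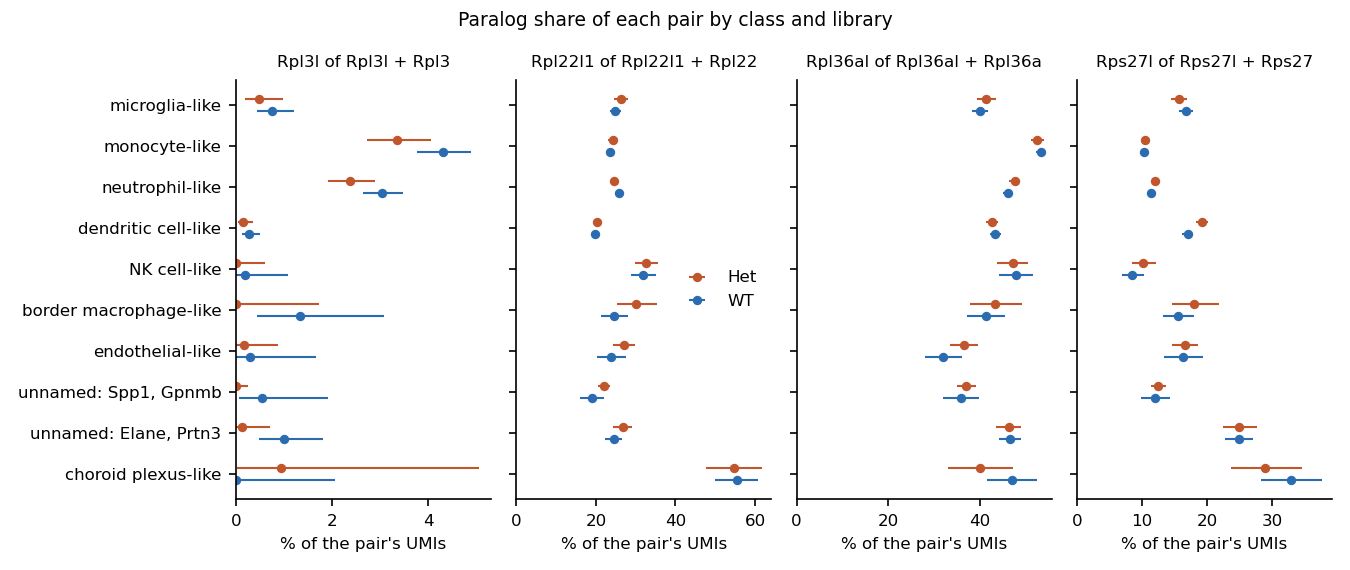
Share of a pair's UMIs from the paralog (x axes, percent, with 95% Clopper-Pearson intervals for counting error) by class and library. Rpl3l is highest in monocyte-like and neutrophil-like cells, and Rpl36al exceeds 50% in monocyte-like cells, in both libraries. Rpl22l1 exceeds 50% in choroid plexus-like cells, most of whose barcodes were found in both libraries.

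The other paralogs also varied between classes. Rpl22l1, the paralog of the 60S protein Rpl22, was 54.8% (47.6% to 61.8%) and 55.4% (49.9% to 60.8%) of its pair in choroid plexus-like cells, with the shared barcodes named above, and between 18.9% and 32.7% in the other 9 classes of the plot. Rpl36al, a retrogene copy of the X-linked Rpl36a, was 52.6% (51.2% to 54.0%) and 53.4% (52.4% to 54.4%) of its pair in monocyte-like cells and below 50% in the other classes plotted. Within monocytes it was 55.8% and 55.7% in the Vcan cluster and 50.3% and 51.5% in the Cd300e cluster.

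Rps27l, a paralog of Rps27 known as a target of p53, was 10.4% and 10.3% of its pair in monocyte-like cells, 25.0% and 24.8% in the Elane cluster and, highest of the classes plotted, 28.9% and 32.8% in choroid plexus-like cells (80 and 134 UMIs, with the shared barcodes named above). In the Cd300e cluster it was 7.72% and 7.83%, against 14.4% and 14.5% in the Vcan cluster. Rpl7l1, which acts in nucleolar assembly of the large subunit, made up 6.15% of the pair with Rpl7 in Het microglia-like cells and 5.99% in WT, against 3.51% and 3.68% in the monocyte-like class. Rpl39l, known from the testis, had 21 and 14 UMIs in all, against 48480 and 66416 for Rpl39. Rpl10l, also a testis gene, had 1 UMI in Het and 0 in WT, which allows up to 3 counts in the WT library.

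Between the libraries, few members were beyond 1.5-fold in the larger classes. In microglia-like cells 0 of 83 members were beyond 1.5-fold higher in Het and 1 lower, where 2.63% and 0.984% of all tested genes were; 78 of 83 were below 1, with a median log2 ratio of -0.14 against 0.04 for all genes. The summed share was 0.910 (0.905 to 0.915) of WT, and 0.898 and 0.992 in the P2ry12 and Klk8 clusters. In monocyte-like cells 0 of 84 were beyond 1.5-fold in either direction, where 1.22% and 0.571% of all genes were, and the summed share was 0.996 (0.992 to 0.999) of WT.

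In neutrophil-like cells 0 of 82 members were beyond 1.5-fold either way, where 0.876% and 1.73% of genes were, but all 82 were below 1, with a median log2 ratio of -0.24 against -0.11 for all genes. Rpl3l, with a mean under 20 CPM, was not among the 82, and its level given above was beyond 1.5-fold lower in Het. In dendritic cell-like cells 0 of 83 were beyond, against 4.33% and 2.66% of genes, with a median of -0.04. NK cell-like cells had 71 of 80 members above 1 and a median of 0.16 (1 beyond 1.5-fold higher and 0 lower, against 9.67% and 7.26% of genes). Border-associated macrophage-like cells had 0 of 80 beyond higher and 5 lower (7.75% and 10.1% of genes), all 80 below 1 and a summed share 0.763 of WT. Endothelial-like cells had 0 and 1 of 81 (16.1% and 8.9%), all 81 below 1 and a summed share 0.778 of WT, with the shared barcodes given above. Choroid plexus-like cells had 2 and 2 of 80 (15.3% and 12.6%), and the Spp1 cells 0 and 0 of 83 (8.61% and 6.22%). In the Olfm4 cluster 0 of 80 were beyond in either direction, where 6.72% and 3.17% of genes were, and 71 of 80 were above 1. In the Stfa1 cluster 56 of 80 members were beyond 1.5-fold lower in Het and 0 higher, where 17% and 4.56% of genes were, with the microglia marker levels given above. Among its cells under the 0.25% limit, which was set after seeing the values, 0 of 66 members were lower and 2 higher. All genes were not counted under that limit, so this count has no background share beside it.

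**Figure D5:**
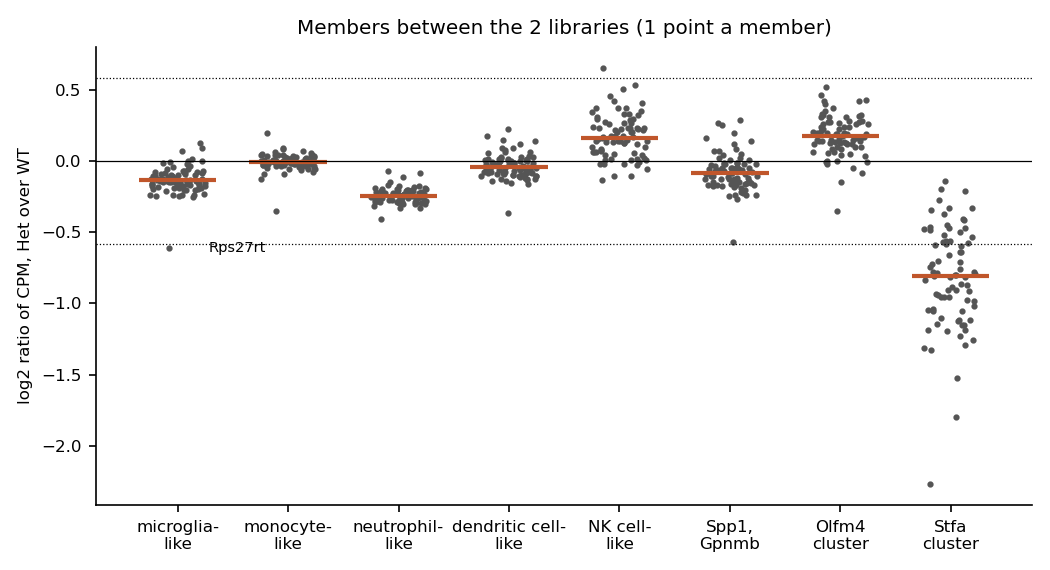
Each point is 1 tested member, with its log2 ratio of CPM in Het over WT (y axis) in 5 named classes, the Spp1 cells and 2 neutrophil-like clusters (x axis). Orange bars are medians, dotted lines mark 1.5-fold, and members sit close together in each class, apart from Rps27rt in microglia-like cells and the spread in the Stfa1 cluster.

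The 1 member beyond the limit in microglia-like cells was Rps27rt, a copy of Rps27 on chromosome 9 (114982366 to 114982739), with 28.1 CPM (44 UMIs) in Het and 43.0 CPM (91 UMIs) in WT and a log2 ratio of -0.61 (-1.16 to -0.08). All 271 aligned bases of its last 300 transcript bases are identical to those of Rps27, so reads of these genes cannot be told apart there and its count is uncertain beside Rps27, which had 1858 and 1860 CPM. It was also the lowest member in dendritic cell-like cells (-0.37, -0.80 to 0.06). The highest members were Rpl35 (0.20 in monocyte-like and 0.22 in dendritic cell-like cells), Rpl23a and Rpl31 (0.09 and 0.08 in monocyte-like cells), and Rpl4 and Rps27l (0.17 and 0.15 in dendritic cell-like cells). The lowest in monocyte-like cells after Rpl3l were Rps19bp1 (-0.13) and Rpl7l1 (-0.10), and in dendritic cell-like cells Rps7 was also among the lowest (-0.16).

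Outside the symbol rule, Fau, whose product is a ubiquitin-like protein fused to a 40S protein, had a Het to WT ratio of 0.958 in monocyte-like cells, and Rack1, a 40S scaffold, 0.990.

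Genes of the wider translation machinery were counted from lists of known genes. Of 20 elongation factors and other TOP messages, 9 were beyond 1.5-fold higher in dendritic cell-like than in microglia-like cells in both libraries and 0 lower, where 13.2% and 21.8% of all genes were. All 20 were lower in the Stfa1 than in the Camp cluster, where 48.1% of all genes were. Of 27 initiation factors, 6 were higher and 1 lower in the first comparison, and of 30 ribosome biogenesis genes 9 of 20 tested were higher. In the Klk8 against the P2ry12 microglia-like cluster, where 9.42% of all genes were higher and 35.5% lower, 7 of the 20 TOP messages were higher and 3 of 27 initiation factors, with 4 lower, and 1 of 12 tested biogenesis genes, with 1 lower. Mitochondrial ribosomal protein genes, a separate set for the mitochondrial ribosome, had 13 of 45 tested higher and 0 lower there. They gave 0.417% and 0.427% of the UMIs of kept cells in Het and WT.

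Between the libraries, genes of these lists are named for the size of their ratios, and counts over a list are given only where stated. In microglia-like cells 2.63% of all tested genes were beyond 1.5-fold higher in Het and 0.984% lower, so the genes named there are examples only. In microglia-like cells (ratios of CPM, Het over WT) Nop56 and Nop14, of ribosome biogenesis, stood at 1.56 and 1.74 and Sbds, which frees the new 60S subunit for use, at 0.644. Gcn1 and Usp10, of the response to stalled ribosomes, stood at 1.55 and 1.74, and the kinase gene Eif2ak2 at 1.62. In dendritic cell-like cells Gnl3, a nucleolar biogenesis gene, had 94.4 CPM in Het and 59.8 in WT, and the X-linked initiation factor gene Eif2s3x 51.5 and 30.3 CPM. The sex of the cells moved with the library in monocyte-like cells, as given above. The part of sex in the Eif2s3x level was not tested. Ddit4, an inhibitor of mTORC1, had 27.5 CPM in Het and 53.5 in WT, and 5 of 70 mitochondrial ribosomal protein genes were higher and 0 lower, where 4.33% and 2.66% of all genes were. None of the 6 tested genes of mTORC1 and TOP control was beyond 1.5-fold in monocyte-like or neutrophil-like cells. Of all tested genes, 1.22% were higher and 0.571% lower in monocyte-like cells, and 0.876% and 1.73% in neutrophil-like cells. At these shares, none among 6 genes is not a result about them.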

How the data were processed

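Matrices of UMI counts were deposited by the authors, 1 per library (10x Genomics 3′ v3.1 kit). The submitters' processing notes name Cell Ranger 4.0 and mm10, and per the file headers version 5.0.0 wrote the matrices; other settings are not given in the sources used here. Cells were log-normalised to 10000 counts and clustered with scanpy 1.11.5 (2000 variable genes, none ribosomal, 30 components, 15 neighbours, Leiden resolution 0.5), both libraries together without integration; no doublets were called or removed. A cluster was named when 1 of 20 marker lists led its top 10 genes and at least 3 of its markers were up by 1.5-fold. UMIs were summed per class and library; shares carry Clopper-Pearson 95% intervals and ratios exact conditional binomial ones. These were checked on simulated counts. Genes were called beyond 1.5-fold with at least 50 UMIs and a mean of 20 CPM; shares of ribosomal protein UMIs had the UMI minimum alone. Named members are the paralogs, the 8 most abundant, those beyond 1.5-fold (or the 3 highest and lowest) between libraries and the 10 with the widest class spread; Stfa1-cluster members and Rpl3l subclusters were singled out after their values were seen. Some genes under these rules are not reported here. Members and lists were chosen with earlier results of these data known.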

Additional observations from a re-analysis of the deposited data

Results flagged for a closer look

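The ribosomal protein share moved in opposite directions between the libraries in 2 neutrophil-like clusters. In the cluster led by Olfm4 and Ltf the Het share was 1.11 times that of WT (1.10 to 1.12), and in the cluster led by Cstdc4 and Stfa1 it was 0.624 times (0.611 to 0.638). With 1 library per genotype this difference was not tested. Over single cells of the Olfm4 cluster the medians stood the other way, at 3.42% in Het and 4.21% in WT. Among cells with under 0.25% of UMIs in microglia markers the ratios were 1.12 in the Olfm4 cluster and 0.968 in the Stfa1 cluster, and 0.806 in the Camp cluster, where it was 0.864 over all cells. Microglia markers summed to 2231 CPM in Het and 6299 CPM in WT over all cells of the Stfa1 cluster.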

How the results depend on the processing

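No paired analysis was possible because each genotype has 1 library. The neutrophil-like to microglia-like ratio of ribosomal protein shares (0.706 in Het, 0.758 in WT) stayed below 1 in all 14 alternatives, from 0.506 to 0.905 in Het and from 0.557 to 0.925 in WT. In Het and WT it was 0.697 and 0.749 with no cell filter, 0.735 and 0.778 with the stricter filter, 0.697 and 0.750 without mitochondrial UMIs, 0.905 and 0.894 without the 50 most abundant other genes, 0.546 and 0.557 with equal weight per cell, 0.540 and 0.562 thinned to 2000 UMIs, 0.689 and 0.727 without shared barcodes, 0.733 and 0.827 at resolution 1.0, 0.892 and 0.821 in Xist-marked cells, 0.874 and 0.925 against the P2ry12 cluster alone, and 0.506 and 0.601 with neutrophil-like cells under 0.25% microglia UMIs. In Het it was also 0.697 when clustered with ribosomal protein genes and 0.716 at resolution 0.25. The cause was not tested. Cells with Xist alone were unlike cells with neither mark in ribosomal protein share. Among microglia-like cells they had 11.9% in Het and 12.2% in WT, against 21.6% and 22.0% in cells with neither mark. Among neutrophil-like cells they had 10.6% and 10.1%, against 4.52% and 5.81%. Ratios in Xist-marked cells thus also depend on which cells of a class carry the mark.

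The Het to WT ratio in microglia-like cells (0.910) was 0.888 with the stricter filter, 0.942 with equal weight per cell, 0.937 thinned, 0.902 without shared barcodes, 0.921 clustered with ribosomal protein genes, 0.939 at resolution 1.0, 0.900 at resolution 0.25, 0.968 in Xist-marked cells (with the limit just given), 0.868 with TMM (edgeR 4.0.16), 0.870 with median-of-ratios scaling and 0.898 in the P2ry12 cluster. In monocyte-like cells (0.996) it turned to 1.02 with no cell filter, 1.00 with equal weight, 1.01 thinned and 1.13 in Xist-marked cells (254 Het and 12 WT cells), and was 1.00 without shared barcodes, 0.985 at resolution 0.25, 0.969 with TMM and 0.968 with median-of-ratios scaling, so no direction is given for it.

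The count of members beyond 1.5-fold between libraries in microglia-like cells (1) was 0 with no cell filter, equal weight, thinning, resolution 1.0 or a minimum of 200 UMIs, and 3 with a minimum of 10 UMIs and no CPM minimum. In monocyte-like cells (0) it was 1 thinned and 7 in Xist-marked cells. The count in share of ribosomal protein UMIs between neutrophil-like and microglia-like cells (1) was 2 with no cell filter, equal weight, shared barcodes left out, resolution 1.0 or neutrophil-like cells under 0.25% microglia UMIs, and 0 thinned or in Xist-marked cells. Keeping the S6 kinases changed none of the 4 ratios by more than their counting error. Alternatives on the S6 kinases, the P2ry12 cluster and microglia marker UMIs were chosen after seeing the data. Members under about 50 UMIs in a class are limited by depth.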
